A study of Mus musculus with 23 samples.

Results

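The 43 proteasome subunit genes described here were measured in ear skin of mice at rest and at 3 times after an ear punch. They were the genes whose array row carried 1 symbol made of Psm, a letter from a to e and a number, with the row of the highest mean used for each gene, and they stood among 19938 genes tested. Per the labels, the ear pinna came from 4-week-old female mice, either wild type (Rhbdf2+/+, strain C57BL/6J) or cub (Rhbdf2cub/cub, strain B6.Cg-Rhbdf2cub/J). Genotype and strain label go together, so the cub allele and any other difference between the strains cannot be told apart. Tissue was taken from unwounded ears (0 h) and at 15 min, 2 h and 24 h after a 2-mm punch, as a 3-mm biopsy that held the 1-mm rim of the hole. No hole or biopsy size is given for the 0 h samples, so wounded and 0 h tissue may also differ in the piece that was taken. iRhom2, the product of Rhbdf2, is a rhomboid-like protein without protease activity that guides the sheddase ADAM17 to maturity. The cub allele lacks part of that gene, in every cell of the animal, and the study asked how the genotypes differ early in wound closure. Each of the 8 groups had 3 arrays, labelled as biological replicates, except cub at 15 min, which had 2.

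The proteasome is the protease that degrades proteins marked with ubiquitin. Its barrel-shaped core is built from an outer pair of rings of alpha subunits (Psma genes) and an inner pair of rings of beta subunits (Psmb genes), of which Psmb5, Psmb6 and Psmb7 cut peptide bonds. A regulatory particle sits on the ends of the barrel. It consists of ATPases that unfold the substrate (Psmc genes) and of subunits that bind and remove ubiquitin (Psmd genes), and a few further Psmd products only help to assemble it. In immune cells and in cells exposed to interferon, the catalytic subunits Psmb8, Psmb9 and Psmb10 take the places of Psmb5, Psmb6 and Psmb7, which gives the immunoproteasome. The PA28 cap made of Psme1 and Psme2 is induced by interferon too, and the immunoproteasome supplies peptides for presentation on MHC class I. In skin, as in other tissues, the constitutive form is made by all cells, and the immune form is known from leukocytes.

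By these roles the members fell into 7 alpha subunits, 4 beta subunits of the core that are not replaced in the immunoproteasome, the 3 replaced catalytic subunits, the 3 immunoproteasome subunits, 6 ATPases and 11 further subunits of the regulatory particle, 3 assembly chaperones of the particle, the 2 subunits of the interferon-induced PA28 cap, 2 other caps (Psme3 and Psme4), and Psma8 and Psmb11, which belong to the testis and the thymus. The 7 alpha, 4 unreplaced and 3 replaced beta subunits are called the constitutive core below, and the 6 ATPases with the 11 further subunits the regulatory particle.

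Sequence before the start of transcription was looked at for the genes that the genotype comparison turns on, and for the catalytic subunits they replace. RefSeq windows of the GRCm38.p6 assembly were matched for 36 of the 43 members, in 39 windows, and 250 bases before each start were searched on both strands with 0 mismatches. The first sequence below is the window of Psmb8, chr17:34197945-34198194, plus strand, with the letters of a STAT binding site (TTCNNNGAA) in capitals. The second is the stretch from the start of Psmb9 back to the start of Tap1, a peptide transporter gene that is read in the other direction, chr17:34187331-34187555, minus strand, which held none of the motifs. The last pair are short stretches before the starts of Psmb5, chr14:54618026-54618050, minus strand, and Psmb6, chr11:70525340-70525356, plus strand, with the letters of an antioxidant response element core (TGACNNNGC) in capitals.
Psmb8: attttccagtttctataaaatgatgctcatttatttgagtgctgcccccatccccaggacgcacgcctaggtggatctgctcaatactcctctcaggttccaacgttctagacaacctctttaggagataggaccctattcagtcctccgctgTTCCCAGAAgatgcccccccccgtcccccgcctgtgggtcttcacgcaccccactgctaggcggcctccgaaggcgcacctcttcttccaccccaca
Psmb9: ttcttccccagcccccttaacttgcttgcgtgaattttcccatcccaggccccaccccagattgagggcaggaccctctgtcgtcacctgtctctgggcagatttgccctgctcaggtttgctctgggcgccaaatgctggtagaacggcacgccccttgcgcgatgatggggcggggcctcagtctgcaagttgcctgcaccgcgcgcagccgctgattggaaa
Psmb5: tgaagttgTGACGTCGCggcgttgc
Psmb6: aaagagagTGACGGAGC

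The STAT letters lay 97 to 89 bases before the start of Psmb8, and 2.56% of the member windows and 7.02% of all 32851 windows held them. The antioxidant letters lay 47 to 39 bases before the start of Psmb5 and 9 to 1 bases before that of Psmb6. They were also found for Psmc6, Psmd9 and Psmd12, in all in 12.8% of the member windows and in 10.2% of all windows. The letters of an interferon-stimulated element core were in 7.69% of the member windows, those of Psmb3, Psmd4 and Psmd9, and in 2.98% of all windows. All 3 immunoproteasome genes had a window, and none of those windows held these letters. A match of letters is not a binding site, and these shares are descriptions only.

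The values are log2 RMA values, so a difference of 1 is a doubling, and a probe set's level cannot be set against that of another gene. The array medians lay between 6.37 and 6.46. The 12 ear skin markers had a summed level of 15.37 to 15.71 on the log2 scale on all arrays. Single skin markers changed within that sum, and leukocyte markers rose after the punch, as described below. Rhbdf2 was at 8.64 to 8.76 in wild type and 9.07 to 9.14 in cub at 0 h, and at 8.57 to 9.01 and 8.20 to 8.45 at 24 h. Where its probes lie relative to the cub allele was not examined, so it is a weak check of the labels. On 1 array, wild type at 2 h replicate 3, interferon-induced genes stood apart from the other arrays of its group, with Cxcl9 at 8.98 against 7.12 and 7.06, and Ifit1 at 7.49 against 6.41 and 5.90. Counts over this group, and the immunoproteasome results that rest on it, are also given without that array. Bulk tissue was measured, so a change in the number of cells of a type and a change in the RNA per cell cannot be told apart. Each difference stands with the standard error of the limma fit and a p-value from it, adjusted by the Benjamini-Hochberg method over all 19938 genes within a comparison, and a gene is said to have risen or fallen where that p was under 0.05.

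The first question was what wounding did to the proteasome. At 24 h nearly the whole constitutive proteasome had risen in both genotypes. Of the 43 members, 33 rose and 0 fell in wild type (34 had an unadjusted p under 0.05), and 31 rose and 2 fell in cub. Over all genes tested, 20.5% rose and 22.4% fell in wild type, and 21.1% rose and 24.9% fell in cub. Among the 13741 genes whose highest group mean was at least 6, which held 41 of the members, 28.9% rose in each genotype. The changes were small. Over the core they ran from -0.05 to 0.54 in wild type and -0.05 to 0.56 in cub. Over the particle they ran from -0.06 to 0.56 and from -0.17 to 0.58. The median change was 0.28 in wild type and 0.34 in cub over the 14 genes of the constitutive core, and 0.26 and 0.34 over the 17 genes of the regulatory particle, while over all genes tested it was -0.02 and -0.00. The wild-type and cub changes share no arrays. Of the 43 members, 30 rose in both genotypes, 3 in wild type only and 1 in cub only by these calls, a split whose differences were tested with the interactions below.

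The alpha subunits, which form the gate of the barrel, rose in 6 of 7 cases in wild type and 7 of 7 in cub. Psma5 was at 8.73, 8.84 and 8.91 in unwounded wild-type ears and at 9.54, 9.28 and 9.28 at 24 h, and in cub at 8.73, 8.68 and 8.75 before and 9.18, 9.21 and 9.28 after. All 6 wounded arrays were above all 6 unwounded ones, by 0.54 ± 0.07 in wild type (adjusted p = 1.03e-06) and 0.50 ± 0.07 in cub (2.09e-06). Psma7 was at 9.44, 9.50 and 9.57 before and 9.99, 9.84 and 9.86 after in wild type, and at 9.36, 9.27 and 9.24 before and 9.87, 9.90 and 9.77 after in cub. It rose by 0.39 ± 0.06 (1.27e-05) and 0.56 ± 0.06 (8.66e-08). Psma6 was the alpha subunit that did not pass the test in wild type, at 0.12 ± 0.06 (0.135), and it rose by 0.24 ± 0.06 in cub (0.00379).

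Among the beta subunits of the core that have no immune counterpart, Psmb2, Psmb3 and Psmb4 rose and Psmb1 did not pass the test. Psmb2 was at 11.23, 11.22 and 11.28 in unwounded and 11.74, 11.75 and 11.73 in wounded wild-type ears, and at 11.17, 11.18 and 11.17 and then 11.69, 11.77 and 11.69 in cub. The groups were far apart for their spread, with a rise of 0.50 ± 0.04 in wild type (6.42e-09) and 0.54 ± 0.04 in cub (1.10e-09). Psmb1 changed by -0.05 ± 0.06 in each genotype (0.591 in wild type and 0.610 in cub), and its 24 h and 0 h arrays overlapped.

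The 3 catalytic subunits that the immunoproteasome replaces rose as well. Psmb5, the chymotrypsin-like subunit, was at 11.89, 11.99 and 11.95 at 0 h and 12.18, 12.35 and 12.30 at 24 h in wild type, and at 11.93, 11.85 and 11.89 and then 12.20, 12.22 and 12.09 in cub. The wounded arrays were all above the unwounded ones, by 0.33 ± 0.06 (0.000122) and 0.28 ± 0.06 (0.000648). Psmb6, the caspase-like subunit, was at 10.23, 10.32 and 10.41 and then 10.72, 10.59 and 10.64 in wild type, and at 10.19, 10.13 and 10.17 and then 10.59, 10.54 and 10.48 in cub. Its arrays did not overlap either, with rises of 0.33 ± 0.06 (6.06e-05) and 0.37 ± 0.06 (1.14e-05).

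Psmb7, the trypsin-like subunit, moved least of these. It was at 10.36, 10.38 and 10.36 at 0 h and 10.67, 10.45 and 10.45 at 24 h in wild type, and at 10.30, 10.28 and 10.25 and then 10.51, 10.43 and 10.40 in cub. The rises were 0.16 ± 0.05 (0.0229) and 0.17 ± 0.05 (0.0128). In wild type the high array was replicate 1 of the 24 h group, and without it the rise was 0.08 ± 0.05 (0.199). The wild-type call was also lost under quantile normalization, at 0.09 ± 0.05 (0.180), in a fit of the 0 h and 24 h arrays alone (0.118) and without wild-type 0 h replicate 1 (0.0580) or 3 (0.0546), and the p ranged from 0.0123 to 0.199 over the 30 alternatives. In cub it was lost under quantile normalization (0.0673) and without cub 24 h replicate 1 (0.0708), within a range of 0.00265 to 0.0708.

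**Figure D1:**
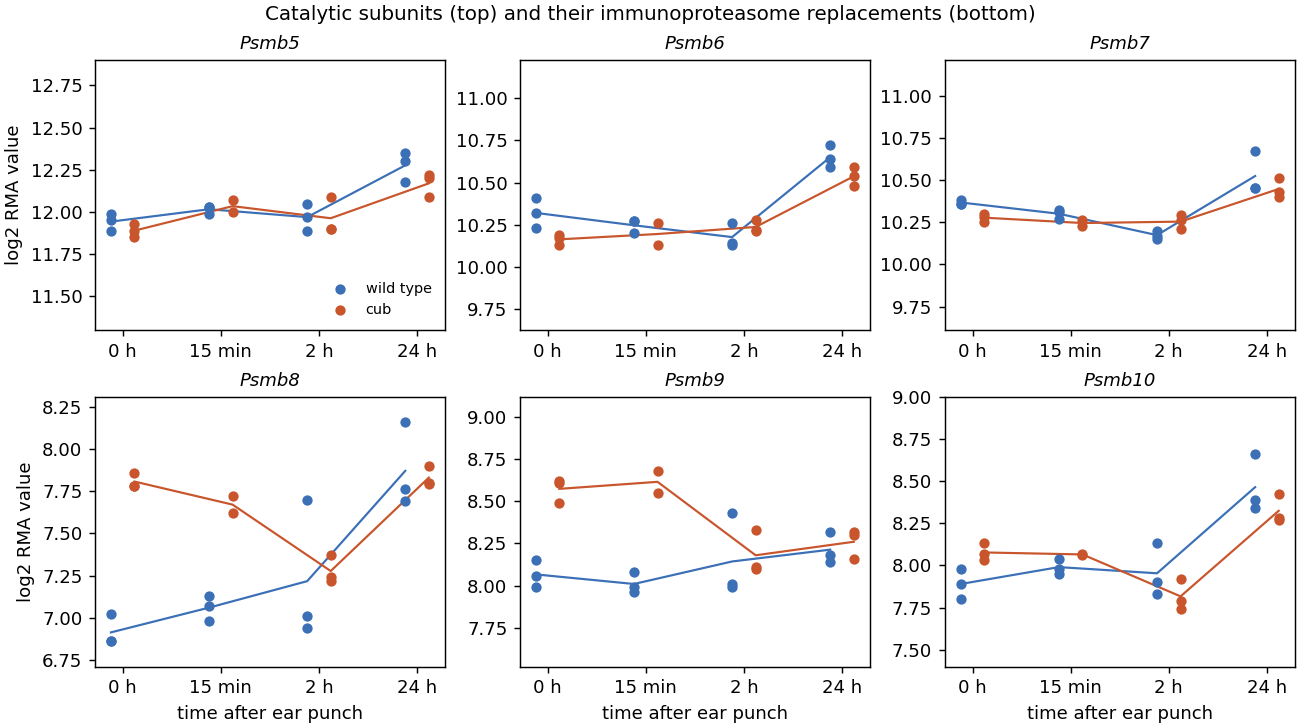
Log2 RMA values of the 3 constitutive catalytic subunits (top) and the immunoproteasome subunits that replace them (bottom) at 4 times in wild type (blue) and cub (orange). Points are arrays, lines join group means, and every panel spans 1.6 log2 units. The top genes rise at 24 h in both genotypes, whereas Psmb8 and Psmb9 start higher in cub, at 7.78 to 7.86 against 6.86 to 7.02 for Psmb8.

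The regulatory particle rose with the core, in 16 of 17 genes in wild type and 15 of 17 in cub. All 6 ATPases rose in wild type and 5 of 6 in cub, where Psmc5 changed by 0.12 ± 0.06 (0.0991). Psmc4 gave the largest change of the ATPases, 0.43 ± 0.06 in wild type (1.75e-06) and 0.51 ± 0.06 in cub (1.37e-07). The scaffold subunit Psmd3 was at 9.24, 9.36 and 9.37 before and 9.88, 9.89 and 9.88 after wounding in wild type, and at 9.25, 9.21 and 9.19 and then 9.72, 9.83 and 9.64 in cub. All its wounded arrays exceeded all unwounded ones, by 0.56 ± 0.06 (3.02e-08) and 0.51 ± 0.06 (7.97e-08). Psmd12, which belongs to the lid of the particle, was at 9.89, 9.88 and 9.83 and then 10.32, 10.34 and 10.33 in wild type, and at 9.82, 9.85 and 9.79 and then 10.38, 10.42 and 10.35 in cub. The rise was 0.46 ± 0.05 (9.04e-08) and 0.56 ± 0.05 (3.56e-09), and the groups were again apart.

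Other lid subunits did the same. Psmd6 was at 9.99, 10.07 and 10.01 and then 10.48, 10.43 and 10.41 in wild type, and at 9.88, 9.92 and 9.82 and then 10.44, 10.53 and 10.38 in cub. It rose by 0.42 ± 0.06 (3.65e-06) and 0.58 ± 0.06 (2.85e-08). Psmd14, the enzyme that removes ubiquitin chains from the substrate, rose by 0.42 ± 0.06 (1.94e-06) and 0.53 ± 0.06 (6.85e-08). The ubiquitin receptor Psmd4 rose by 0.25 ± 0.05 in each genotype (0.000735 in wild type and 0.000650 in cub).

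Psmd8 ran the other way. It was at 10.77, 10.71 and 10.73 in unwounded wild-type ears and 10.82, 10.58 and 10.64 at 24 h, and at 10.82, 10.82 and 10.76 and then 10.62, 10.63 and 10.63 in cub. The wild-type groups overlapped (-0.06 ± 0.05, 0.465). The cub groups did not, and Psmd8 fell by 0.17 ± 0.05 there (0.0120). Of the assembly chaperones, Psmd10 (also called gankyrin) rose by 0.28 ± 0.07 in wild type (0.00205) and 0.22 ± 0.07 in cub (0.0107, lost without cub 24 h replicate 1, at 0.0673). Psmd9 rose by 0.22 ± 0.08 in wild type (0.0261) and was at 0.16 ± 0.08 in cub (0.0920). The highest p for Psmd9 in wild type over the alternatives was 0.0653, without wild-type 24 h replicate 2. Psmd5 did not pass the test in either genotype, at -0.06 ± 0.07 (0.526) and 0.10 ± 0.07 (0.225).

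The caps split. Psme3, the PA28 gamma cap found mostly in the nucleus, was at 10.53, 10.38 and 10.47 in unwounded and 10.87, 11.02 and 10.97 in wounded wild-type ears, and at 10.28, 10.42 and 10.33 and then 10.94, 11.02 and 10.86 in cub. All wounded arrays were higher, by 0.49 ± 0.06 (3.66e-07) and 0.60 ± 0.06 (1.73e-08). Psme4, the PA200 cap, was at -0.15 ± 0.06 (0.0611) and -0.07 ± 0.06 (0.379). In wild type it was called lower under quantile normalization (-0.20 ± 0.05, 0.00254), a filter on the level (0.0479) and trend and robust moderation (0.0487). It was also called without wild-type 0 h replicate 3 (0.00507) or 24 h replicate 3 (0.0326). The interferon-induced cap did not pass the test, with Psme1 at -0.03 ± 0.06 (0.752) and -0.06 ± 0.06 (0.499), and Psme2 at 0.06 ± 0.07 (0.609) and -0.11 ± 0.07 (0.274). Psma8 and Psmb11, the testis and thymus subunits, stayed at 4.61 to 4.95 and 5.12 to 5.45 on all arrays, below the level of 6 used as a filter, and were not called in any comparison.

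**Figure D2:**
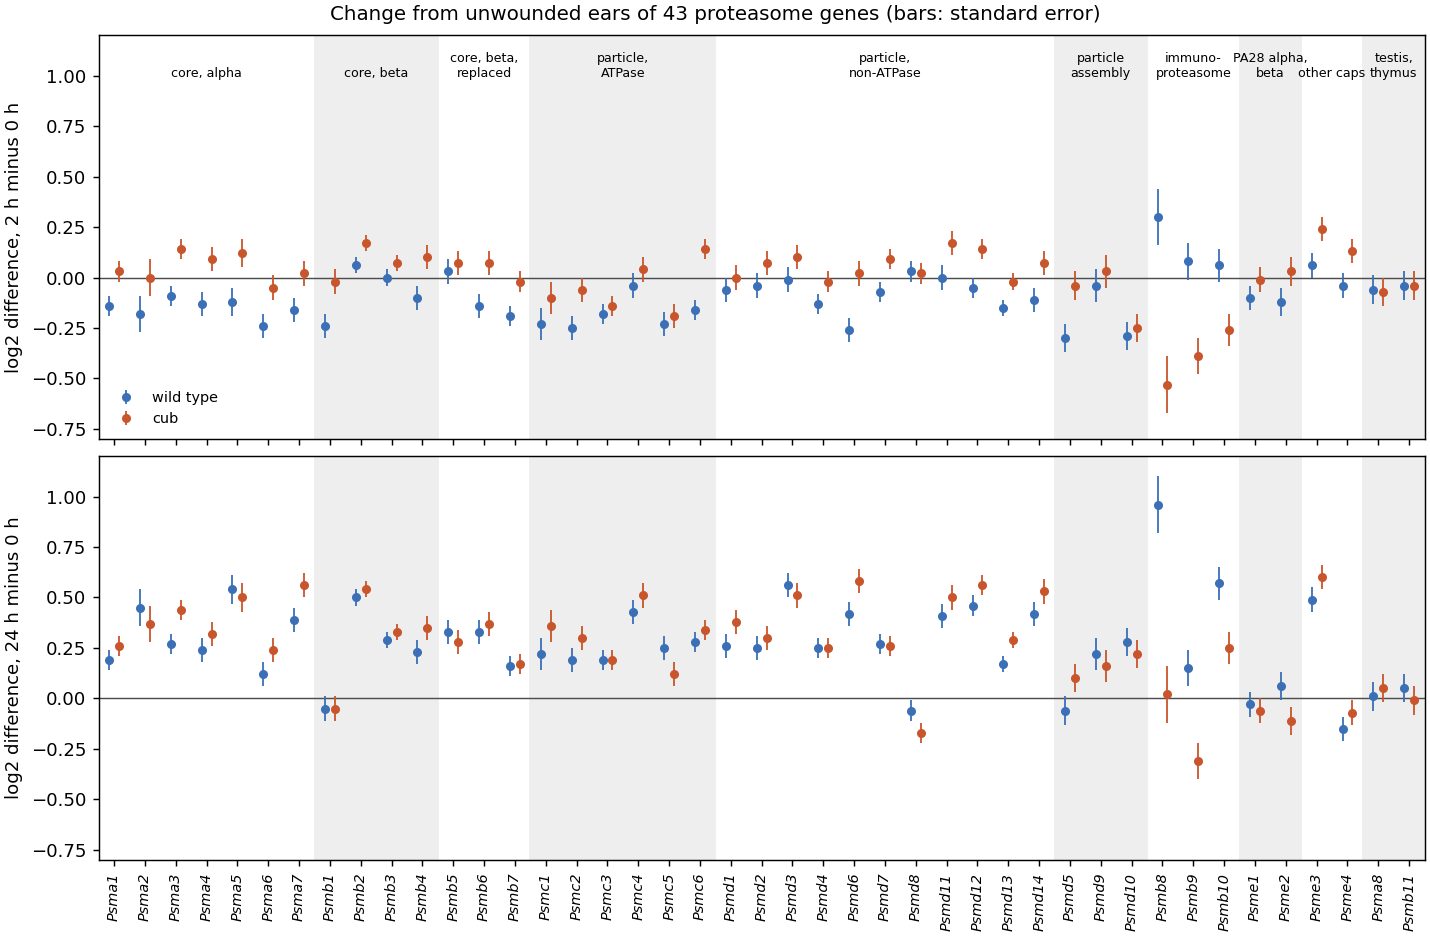
Log2 change from 0 h at 2 h (top) and 24 h (bottom) of each of the 43 members, in wild type (blue) and cub (orange), with bars for the standard error of the fit and shading for the classes. At 24 h nearly all core and particle genes lie above 0 in both genotypes, from 0.12 to 0.58 apart from Psmb1 and Psmd8, and Psmb8, Psmb9 and Psmb10 are the genes whose genotypes lie farthest apart.

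Most of these calls held under the processing alternatives, but the size of the rises depended on the scaling. Under quantile normalization the core median was 0.21 in wild type and 0.28 in cub, and the particle median 0.20 and 0.30. With median-centred arrays they were 0.29 and 0.38 for the core, and 0.27 and 0.38 for the particle. Of the 33 members that rose in wild type, 29 did so under each of the 30 alternatives, and of the 31 in cub, 28 did. Besides Psmb7 and Psmd9, the wild-type calls of Psmc1 (0.22 ± 0.08, 0.0197) and Psmc2 (0.19 ± 0.06, 0.0105) were lost under some of them, at a highest p of 0.108 without wild-type 24 h replicate 1 and 0.0541 without wild-type 0 h replicate 1. For 5 members, Psma3, Psma5, Psmb3, Psmc1 and Psmd2, the array held more rows of the same symbol. Those rows gave changes of 0.19 to 0.45 in wild type and 0.27 to 0.60 in cub, all positive like the rows used. Which row reads the gene and which a near-identical copy was not examined.

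The early times looked different. At 15 min 0 members passed the test in either genotype, where 0.0351% of all genes did in wild type and 0.0251% in cub (by limma, 6 members had an unadjusted p under 0.05 in each genotype). At 2 h, 10 members fell and 0 rose in wild type, where 4.00% of all genes fell and 3.98% rose. They were Psmd5, Psmd10, Psmd6, Psmc2, Psma6, Psmb1, Psmc5, Psmb7, Psmc3 and Psmd13, by 0.15 to 0.30. The median over the core was -0.14 and over the particle -0.11, against -0.01 over all genes. Without wild-type 2 h replicate 3 these medians were -0.13 and -0.11.

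Psmd5, which holds the particle's base during assembly, was at 8.98, 8.98 and 9.0 at 0 h and 8.76, 8.56 and 8.74 at 2 h in wild type, without overlap, and fell by 0.30 ± 0.07 (0.00547). Psmd10 was at 9.09, 9.09 and 9.16 and then 8.95, 8.75 and 8.76, and fell by 0.29 ± 0.07 (0.00901). Psmd6 was at 9.99, 10.07 and 10.01 and then 9.81, 9.72 and 9.75, and fell by 0.26 ± 0.06 (0.00579). Each of these groups lay apart from its 0 h group. The ATPase Psmc2 was at 9.27, 9.27 and 9.43 and then 9.19, 9.04 and 9.0, and fell by 0.25 ± 0.06 (0.00972). Psmb7 fell by 0.19 ± 0.05 (0.0297), a call lost without any 1 of the 6 arrays compared, at 0.0571 to 0.103, and in a fit of those arrays alone (0.0512). The Psmd10 call was lost without wild-type 2 h replicate 2 (0.0538) or 3 (0.0507). The Psmc2 call was lost without wild-type 0 h replicate 3 (0.0689) or 2 h replicate 3 (0.0637), and in a fit of the 6 arrays alone (0.0743). The count of 10 was 6, 4 and 3 without wild-type 2 h replicate 1, 2 and 3, and 5 and 4 without wild-type 0 h replicate 2 and 3.

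In cub at 2 h, 2 members rose and 5 fell, where 7.66% of all genes rose and 4.28% fell. Those that rose were Psme3 and Psmb2. Psme3 was at 10.60, 10.55 and 10.59, all above its 0 h arrays, by 0.24 ± 0.06 (0.00863, and 0.0542 without cub 0 h replicate 1). Psmb2 was at 11.36, 11.31 and 11.37, a rise of 0.17 ± 0.04 (0.0113) that was lost under quantile normalization (0.0669) and in a fit of the 6 arrays alone (0.0839). Those that fell included Psmd10, from 9.16, 9.15 and 9.05 to 8.94, 8.78 and 8.90, by 0.25 ± 0.07 (0.0200), and Psmc5, from 9.02, 9.0 and 8.90 to 8.76, 8.81 and 8.79, by 0.19 ± 0.06 (0.0370).

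Neither fall held throughout. The Psmd10 call was lost without cub 0 h replicate 1 (0.0798) or 2 (0.0656) or cub 2 h replicate 2 (0.101). The Psmc5 call was lost without cub 0 h replicate 1 (0.144) or 2 (0.108), or without cub 2 h replicate 1, 2 or 3 (0.114, 0.0620 and 0.0832). The count of 7 became 3 and 4 without cub 0 h replicate 1 and 2. The other 3 that fell were the immunoproteasome genes, described below. The core median was 0.07 and the particle median 0.02 in cub at 2 h. All 14 core genes had a change from 0 h to 2 h that was more positive in cub than in wild type, with a median difference of 0.19. It shares its 0 h arrays with the genotype difference at 0 h described below, where all 14 were negative, with a median of -0.15. The 14 signs are thus no separate evidence. By limma 0 members passed the test of the genotype difference in the 2 h change, where 0.130% of all genes did, and 20 members had an unadjusted p under 0.05. Among these 20 were 9 core genes and 6 particle genes. The 3 immunoproteasome genes were among them too, with differences in the other direction, from -0.83 to -0.32. Without wild-type 2 h replicate 3 the sign was the same for all 14 core genes, their median difference was 0.18, and 0 members passed (15 with an unadjusted p under 0.05).

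The second question was whether the genotypes differ. For the constitutive proteasome the differences were slight and mostly negative before and soon after wounding. At 0 h 2 members were higher and 1 was lower in cub, where 3.33% of all genes were higher and 1.93% lower. Both that were higher were immunoproteasome genes. All 14 core genes had a negative difference, with a median of -0.15 and a range of -0.21 to -0.05, against a median of -0.01 over all genes, but only Psma7 passed the test. It was at 9.44, 9.50 and 9.57 in wild type and 9.36, 9.27 and 9.24 in cub, without overlap, and was lower, a difference of -0.21 ± 0.06 (0.0414). That call held in 22 of 30 alternatives, and the p reached 0.169, without wild-type 0 h replicate 3. It was also lost in a fit of the 0 h arrays alone (0.0983), without wild-type 0 h replicate 2 (0.116), cub 0 h replicate 2 (0.157) or 3 (0.135), wild-type 15 min replicate 2 (0.0507) or 3 (0.0534), and cub 2 h replicate 3 (0.0512).

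How many constitutive genes were called lower at 0 h depended on the scaling. With the arrays quantile normalized over the genes tested, 9 members were lower, namely Psma7 with Psma1, Psma3, Psma4, Psma6, Psmb3, Psmb4, Psmc6 and Psmd5, and with the arrays centred on their medians 5 were. The core median stayed at -0.15 and -0.16 under these scalings, and the median over all genes at -0.01. At 15 min, 2 members were higher and 2 lower, where 1.57% of all genes were higher and 1.88% lower. The ATPase Psmc6 was at 10.15, 10.14 and 10.16 in wild type and 9.95 and 9.84 in cub, lower, a difference of -0.26 ± 0.06 (0.0230). Psmd5 was at 8.94, 8.92 and 9.04 in wild type and 8.72 and 8.62 in cub, lower, a difference of -0.30 ± 0.07 (0.0321). The groups did not overlap.

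Both 15 min calls rest on few arrays. The Psmc6 call was lost without wild-type 15 min replicate 1 (0.0634), wild-type 15 min replicate 3 (0.0789) or cub 15 min replicate 3 (0.249), and in a fit of these arrays alone (0.132). The Psmd5 call was lost in such a fit (0.119), without wild-type 15 min replicate 1 (0.0675), 2 (0.0503) or 3 (0.121), and without cub 15 min replicate 3 (0.274). The count of 4 was 1, 2 and 1 without wild-type 15 min replicate 1, 2 and 3, and 7 and 0 without cub 15 min replicate 2 and 3. The core median was -0.12 and the particle median -0.13, against 0.03 over all genes.

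At 2 h, 0 members differed between the genotypes by limma, where 4.41% of all genes did, and 4 members had an unadjusted p under 0.05. The core median was 0.04 and turned to -0.02 under quantile normalization. Without wild-type 2 h replicate 3, 0 members passed too, and the core median was 0.03. Without cub 2 h replicate 2, Psmd12 passed the test, at 0.19 ± 0.05 (0.0408). At 24 h the medians of the core and particle were -0.08 and -0.01. In that comparison 1 member was lower in cub, where 3.44% of all genes were. It was Psme2, part of the interferon-induced cap. It was at 11.18, 10.96 and 10.87 in wild type and 10.71, 10.76 and 10.67 in cub, without overlap, and was lower, a difference of -0.29 ± 0.07 (0.0229). The call was lost without wild-type 24 h replicate 1, the highest array (0.125), without cub 24 h replicate 1 (0.0630) or 3 (0.110), and in a fit of the 24 h arrays alone (0.133). Without wild-type 24 h replicate 3, Psma2 passed the test too (-0.31 ± 0.09, 0.0471), and without cub 24 h replicate 2, Psmd3 (-0.20 ± 0.06, 0.0373).

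Averaged over the 4 times, 8 members were lower and 2 higher in cub, where 8.56% of all genes were lower and 9.71% higher. Those that were lower were Psmd5, Psma7, Psmd3, Psma4, Psma6, Psma1, Psmb3 and Psmd14. Of the named ones, Psmd5 differed by -0.14 ± 0.03 (0.00721), Psma7 by -0.11 ± 0.03 (0.0142), Psmd3 by -0.11 ± 0.03 (0.00908) and Psma4 by -0.11 ± 0.03 (0.0124). The average includes the 0 h and 15 min differences above, so it is no separate evidence. Without cub 15 min replicate 3 the calls of Psma7 (0.0599) and Psma4 (0.0511) were lost and the count of 10 was 6. The average over time of Psmb5, Psmb6 and Psmb7 was -0.04 ± 0.03 (0.486), -0.07 ± 0.03 (0.139) and -0.04 ± 0.03 (0.440).

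**Figure D3:**
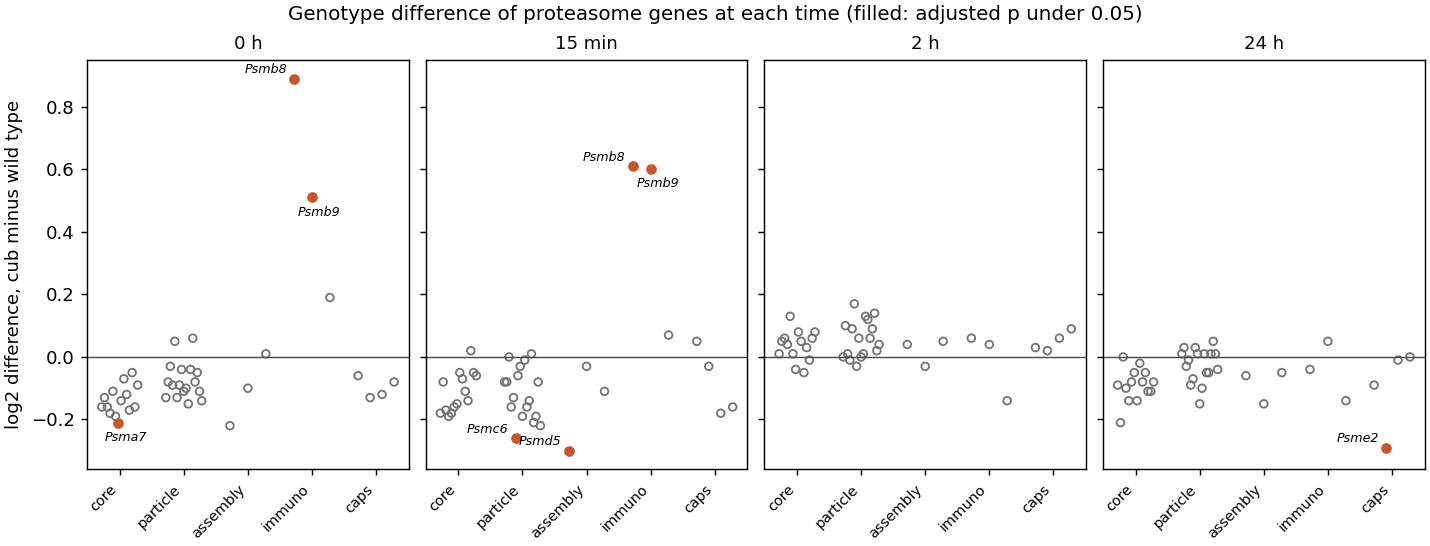
Log2 difference between cub and wild type of the core, regulatory particle, assembly chaperone, immunoproteasome and cap genes at each time, 1 point per gene, filled and named where the adjusted p was under 0.05. Psmb8 and Psmb9 stand at 0.89 and 0.51 at 0 h and at 0.61 and 0.60 at 15 min, and lie among the other genes at 2 h and 24 h.

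The immunoproteasome differed from this. In unwounded ears Psmb8 and Psmb9 were higher in cub, they stayed higher at 15 min, and at 2 h and 24 h no difference passed the test. By the coordinates above, Psmb8, Psmb9 and Tap1 lie close together on chromosome 17. In wild type, Psmb8 and Psmb10 rose by 24 h. In cub, all 3 had fallen at 2 h, and at 24 h Psmb10 was above its starting level, Psmb9 below it, and Psmb8 at 0.02 from it.

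Psmb8, which takes the place of Psmb5, was at 6.86, 6.86 and 7.02 in unwounded wild-type ears and at 7.78, 7.86 and 7.78 in unwounded cub ears. The lowest cub array was above the highest wild-type array. The difference was 0.89 ± 0.14 (adjusted p = 0.000709), or 1.86-fold, and it was called in all 30 alternatives. At 15 min wild type was at 7.13, 6.98 and 7.07 and cub at 7.72 and 7.62, again without overlap, a difference of 0.61 ± 0.15 (0.0360). With 2 cub arrays this call was less firm. It was lost without any 1 of the 5 arrays at 15 min, at 0.0675, 0.0844 and 0.0917 without wild-type replicate 1, 2 and 3 and at 0.0742 and 0.161 without cub replicate 2 and 3, and the p ranged from 0.00361 to 0.161 over the alternatives.

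Wounding changed this order. At 2 h Psmb8 was at 7.01, 6.94 and 7.70 in wild type and 7.24, 7.22 and 7.37 in cub, so that the groups overlapped through wild-type replicate 3, the array with high interferon-induced genes. The difference was 0.06 ± 0.14 (0.880), and without that array 0.30 ± 0.10 (0.133). At 24 h it was at 8.16, 7.76 and 7.69 in wild type and 7.79, 7.90 and 7.80 in cub, overlapping, a difference of -0.04 ± 0.14 (0.940). Within wild type Psmb8 thus rose by 0.96 ± 0.14 from 0 h to 24 h (5.79e-06), or 1.94-fold, the largest rise of any member there. Within cub it fell by 0.53 ± 0.14 from 0 h to 2 h (0.0131) and was at 0.02 ± 0.14 at 24 h (0.920).

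The difference of these changes was tested directly. The change from 0 h to 24 h differed by -0.93 ± 0.19 between the genotypes (0.0218), the only member to pass, where 0.747% of all genes passed in that direction. The interaction shares its 0 h arrays with the genotype difference at 0 h, so these tests are not independent. The call was lost without wild-type 0 h replicate 2 (0.0610), cub 24 h replicate 3 (0.0533), cub 0 h replicate 2 (0.0578) or wild-type 24 h replicate 1 (-0.79 ± 0.19, 0.0528), and the p ranged from 0.000532 to 0.0610. For the change from 0 h to 2 h, the interaction was -0.83 ± 0.19 (0.106), with a range of 0.0608 to 0.252, and -0.59 ± 0.13 (0.133) without wild-type 2 h replicate 3. For 15 min it was -0.28 ± 0.21 (0.683), and 0 genes of any kind passed that test by limma (0 members had an unadjusted p under 0.05).

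Psmb9, which replaces Psmb6, followed the same course at the start. It was at 7.99, 8.06 and 8.15 in wild type and 8.62, 8.49 and 8.61 in cub at 0 h, and at 7.99, 7.96 and 8.08 and then 8.55 and 8.68 at 15 min. The genotypes did not overlap at either time. The differences were 0.51 ± 0.09 (0.00336), called in all 30 alternatives, and 0.60 ± 0.11 (0.00490), lost only without cub 15 min replicate 3 (0.0957). At 2 h wild type was at 7.99, 8.01 and 8.43 and cub at 8.11, 8.10 and 8.33, and at 24 h wild type was at 8.32, 8.18 and 8.14 and cub at 8.32, 8.16 and 8.30. The groups overlapped at both times, with differences of 0.04 ± 0.09 (0.894) and 0.05 ± 0.09 (0.881), and of 0.18 ± 0.08 (0.273) at 2 h without wild-type replicate 3.

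Within cub, Psmb9 fell by 0.39 ± 0.09 to 2 h (0.00743) and was lower than at 0 h by 0.31 ± 0.09 at 24 h (0.00858, all 30 alternatives). In wild type it was at 0.15 ± 0.09 at 24 h (0.241). The genotype difference of the 24 h change was -0.46 ± 0.13 (0.113), and 0.0340 without wild-type 2 h replicate 3, an array that enters this test only through the pooled spread. At 2 h that difference was -0.47 ± 0.13 (0.191), and -0.33 ± 0.11 (0.333) without that array.

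Psmb10, which replaces Psmb7, did not pass the test between the genotypes at any time. It was at 7.98, 7.80 and 7.89 in wild type and 8.03, 8.13 and 8.07 in cub at 0 h, without overlap, a difference of 0.19 ± 0.08 (0.221). At 15 min it was at 8.04, 7.95 and 7.98 against 8.06 and 8.07 (0.07 ± 0.09, 0.644), and at 2 h at 7.90, 7.83 and 8.13 against 7.92, 7.74 and 7.79 (-0.14 ± 0.08, 0.431). Here too wild-type 2 h replicate 3 was the high array, and without it the difference was -0.05 ± 0.08 (0.828). At 24 h it was at 8.66, 8.34 and 8.39 against 8.42, 8.27 and 8.28 (-0.14 ± 0.08, 0.400).

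Psmb10 rose by 24 h in both genotypes, by 0.57 ± 0.08 in wild type (5.77e-06) and 0.25 ± 0.08 in cub (0.0171). The cub call was lost without cub 0 h replicate 1 (0.0628) or cub 24 h replicate 1 (0.0898). The difference of these rises was -0.33 ± 0.12 (0.241). Its fall of 0.26 ± 0.08 in cub at 2 h (0.0426) held in 22 of 30 alternatives, and the highest p was 0.145, without cub 2 h replicate 2. Leaving out other single arrays ended it too, namely cub 0 h replicate 1 (0.0672), 2 (0.128) or 3 (0.0945), cub 2 h replicate 3 (0.116), wild-type 0 h replicate 3 (0.0503), wild-type 15 min replicate 3 (0.0538) and wild-type 2 h replicate 1 (0.0500).

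The interferon-induced cap genes did not share the genotype difference of Psmb8 and Psmb9 at 0 h. Psme1 was at 10.08, 10.12 and 10.24 in wild type and 10.09, 10.11 and 10.06 in cub, and its arrays overlapped (-0.06 ± 0.06, 0.696). Psme2 was at 10.95, 10.98 and 10.91 in wild type and 10.87, 10.75 and 10.84 in cub (-0.13 ± 0.07, 0.400). At 15 min the differences were 0.05 ± 0.07 (0.665) and -0.03 ± 0.08 (0.876). Psme1 was called in none of the 14 comparisons.

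Genes that work with the immunoproteasome moved with it at 0 h. Of 9 antigen processing genes tested of 11 listed, 5 were higher in cub at 0 h and 0 lower, with a median of 0.21. Over all genes tested, 3.33% were higher and 1.93% lower. The 3 with the largest differences were Tap1, Nlrc5 and B2m. Tap1, which carries peptides into the endoplasmic reticulum and lies next to Psmb9, was at 8.40, 8.29 and 8.39 in wild type and 9.22, 9.27 and 9.05 in cub, a difference of 0.82 ± 0.12 (0.000635). Nlrc5, the activator of MHC class I genes, differed by 0.40 ± 0.08 (0.00643), and B2m, the light chain of MHC class I, by 0.35 ± 0.08 (0.0121, up to 0.0841 in the alternatives). For Tap1 and Nlrc5 the genotypes did not overlap. At 15 min Tap1, Nlrc5 and Tap2 were higher in cub, by 0.68 ± 0.14 (0.0142), 0.54 ± 0.09 (0.00444) and 0.37 ± 0.07 (0.0111), where 1.57% of all genes were higher. At 2 h 1 of the 9 was higher in cub, Calr, where 765 of the 19938 genes tested were. Tap1 was not called there with all arrays. Without wild-type 2 h replicate 3 it was higher in cub, by 0.42 ± 0.09 (0.0123), where 345 of the 19938 genes were higher. By 24 h Tap1 had risen by 0.44 ± 0.12 in wild type (0.00643) and fallen by 0.33 ± 0.12 in cub (0.0325, up to 0.109 in the alternatives).

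Fewer of the interferon-stimulated genes passed the test, and no test compared the lists. Of 21 tested of 28 listed, 3 were higher in cub at 0 h and 0 lower, Usp18, Ddx58 and Irf9, with a median of 0.31 over the list. Over all genes tested, 3.33% were higher and 1.93% lower. Usp18, which restrains interferon signalling, was at 6.36, 6.66 and 6.59 in wild type and 7.10, 7.14 and 7.14 in cub (0.59 ± 0.12, 0.00643). The groups did not overlap. The summed level of the list at 0 h was 11.21 to 11.28 in wild type and 11.43 to 11.64 in cub on the log2 scale. At 15 min 0 of the 21 passed by limma, where 1.57% of all genes were higher and 1.88% lower, and 3 had an unadjusted p under 0.05. At 24 h 19 rose in wild type and 16 in cub, where 20.5% and 21.1% of all genes rose, with medians of 0.75 and 0.56. By limma 0 passed the test of the difference (3 with an unadjusted p under 0.05). At 2 h the summed level was 11.38 to 12.23 in wild type, the upper end being replicate 3 and the other 2 arrays at 11.38 and 11.57, and 11.49 to 11.61 in cub.

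**Figure D4:**
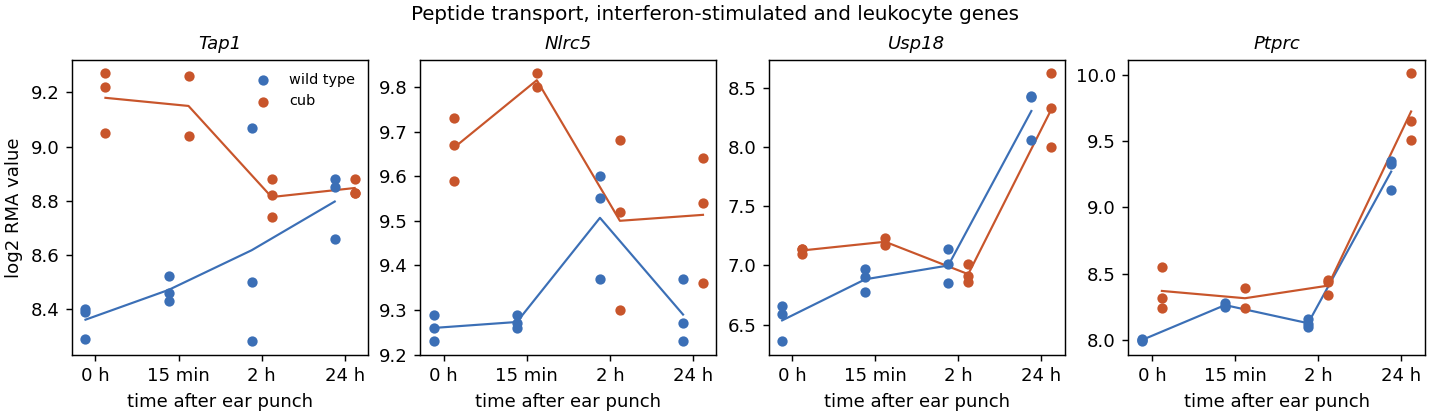
Log2 RMA values of Tap1, Nlrc5, Usp18 and Ptprc by time in wild type (blue) and cub (orange), with points for arrays and lines through group means. All 4 genes are higher in cub at 0 h, Tap1 by 0.82, and Usp18 and Ptprc rise steeply by 24 h in both genotypes.

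Some leukocyte genes also differed between the genotypes, and their part in these results was not tested. Over all genes tested, 3.33% were higher in cub at 0 h and 1.93% lower. Of 10 general leukocyte markers, 2 were higher in cub at 0 h, Ptprc (0.37 ± 0.10, 0.0249) and Coro1a (0.28 ± 0.08, 0.0395), and the summed level was 11.95 to 12.09 in wild type and 12.15 to 12.51 in cub. Of 10 macrophage markers 3 were higher, led by Adgre1 (0.62 ± 0.16, 0.0279), with summed levels of 12.36 to 12.50 and 12.59 to 13.10. Of 10 neutrophil markers, 6 T cell markers and 8 antigen-presenting cell markers 0 passed by limma at 0 h, and 1, 2 and 2 had an unadjusted p under 0.05. At 15 min 0 of the leukocyte and 0 of the macrophage markers passed by limma (2 and 0 with an unadjusted p under 0.05), where 1.57% of all genes were higher. The leukocyte sums were then 12.35 to 12.46 in wild type and 12.40 to 12.50 in cub. At 2 h 4 of the leukocyte, 7 of the macrophage and 4 of the neutrophil markers were higher in cub. Of the 19938 genes tested, 765 were higher there. Without wild-type 2 h replicate 3 the list counts were 1, 0 and 2, with medians of 0.29, 0.44 and 0.53. In that fit 345 of the 19938 genes were higher.

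Leukocyte marker RNA had also risen at 24 h. Over all genes tested, 20.5% rose and 22.4% fell in wild type, and 21.1% rose and 24.9% fell in cub. By then 9 of 10 leukocyte markers had risen in each genotype, with medians of 1.57 in wild type and 1.52 in cub, and all 10 neutrophil markers, with medians of 3.66 and 4.36. The neutrophil sums went from 9.43 to 9.75 at 0 h to 13.57 to 13.83 at 24 h in wild type, and from 9.39 to 9.52 to 13.84 to 14.24 in cub. Macrophage markers rose in 6 of 10 cases in wild type and 5 in cub, where Adgre1 fell by 0.54 ± 0.16 (0.00840). T cell markers rose in 1 of 6 and fell in 3 of 6 in each genotype. Of the 12 ear skin markers, 2 rose and 8 fell by 24 h in wild type, with a median of -0.23, and 1 rose and 8 fell in cub, with a median of -0.26. The fat cell marker Plin1 fell by 0.96 ± 0.23 in wild type (0.00188) and 1.27 ± 0.23 in cub (9.45e-05), and the cartilage gene Acan by 0.84 ± 0.16 (0.000162) and 0.59 ± 0.16 (0.00387). On average over time 4 of the skin markers were higher in cub, where 9.71% of all genes were, led by the keratin gene Krt1 (0.78 ± 0.06, 4.56e-08). The part of these cell types in the rise of the constitutive proteasome was not tested. At 24 h 3 of the 10 leukocyte markers and 2 of the 10 neutrophil markers were higher in cub than in wild type, where 447 of the 19938 genes tested were.

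The genes that build and regulate the proteasome moved mostly as the subunits did. Of 19 tested of 23 listed, 10 rose and 3 fell at 24 h in wild type, and 12 rose and 4 fell in cub, with medians of 0.21 and 0.25. Over all genes tested, 20.5% rose and 22.4% fell in wild type, and 21.1% rose and 24.9% fell in cub. Uchl5 and Usp14, ubiquitin-removing enzymes that dock on the regulatory particle, rose by 0.58 ± 0.07 (3.67e-07) and 0.56 ± 0.07 (5.40e-07) in wild type and by 0.56 ± 0.07 (4.64e-07) and 0.61 ± 0.07 (1.31e-07) in cub. Pomp, which matures the core, rose by 0.35 ± 0.07 in each genotype (0.000300 and 0.000290). Nfe2l1, the transcription factor known for raising proteasome genes when proteasomes are blocked, fell by 0.42 ± 0.06 in wild type (4.04e-06) and 0.54 ± 0.06 in cub (9.20e-08).

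At 2 h, 2 of the 19 had risen and 3 had fallen in wild type, and 2 had risen in cub. Over all genes tested, 3.98% rose and 4.00% fell in wild type, and 7.66% rose in cub. The largest change in wild type was the fall of Sem1, a small subunit of the lid, by 0.47 ± 0.08 (0.00108), and Psmg2 and Ecpas fell by 0.19 ± 0.05 (0.0344) and 0.22 ± 0.06 (0.0354). Without wild-type 2 h replicate 3, 2 rose and 2 fell. Zfand2a and Zfand5, stress-induced proteins that bind the proteasome, rose in both genotypes, by 0.41 ± 0.09 (0.00627) and 0.41 ± 0.08 (0.00160) in wild type and 0.48 ± 0.09 (0.000893) and 0.44 ± 0.08 (0.000437) in cub. At that time 0 members had risen in wild type and 2 in cub. At 0 h 3 of the list were lower in cub and 0 higher, where 1.93% of all genes were lower and 3.33% higher. They were Uchl5 (-0.28 ± 0.07, 0.0161), Psmg2 (-0.28 ± 0.05, 0.00435) and Psmg1 (-0.27 ± 0.08, 0.0372). The last 2 form a chaperone of the alpha ring, and each was among those lower on average over time, at -0.17 ± 0.03 (0.000202) and -0.23 ± 0.04 (0.000394).

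Genes of other protein quality control and stress pathways moved both ways at 24 h. Over all genes tested, 20.5% rose and 22.4% fell in wild type, and 21.1% rose and 24.9% fell in cub. Of 17 NRF2 target genes tested, 11 rose and 4 fell in wild type and 12 rose and 4 fell in cub, with medians of 0.44 and 0.40. Of 9 heat shock genes, 6 rose and 2 fell in wild type and 6 rose and 3 fell in cub, with medians of 0.31 and 0.35. Of 7 ubiquitin conjugation and p97 genes 3 rose and 1 fell in wild type and 4 rose and 1 fell in cub, with medians of 0.05 and 0.15. For the difference between the genotypes in the 24 h change, 2 NRF2 targets passed the test, Slc7a11 (1.06 ± 0.21, 0.0166, up to 0.0582 in the alternatives) and Gsr (0.44 ± 0.09, 0.0225, up to 0.0968). Both changes were more positive in cub, a direction in which 51 of the 19938 genes tested passed. In the same test the core and particle had medians of 0.04 and 0.08, and 0 of their 31 genes passed by limma (1 with an unadjusted p under 0.05).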

How the data were processed

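Total RNA from ear pinna was amplified, labelled with biotin and hybridised to Affymetrix Mouse Gene 1.0 ST arrays, per the labels. Per the submitters' processing notes, the authors used RMA and Affymetrix Expression Console 1.1, and the deposited values are on a log2 scale. RMA fits probe sets jointly and quantile normalizes arrays, so a shift shared by all genes would be removed. The build is not given in the sources used here, nor is the annotation release.

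Of 35556 rows, 21789 carried 1 symbol, 1621 several and 12146 were not named. Rows with several symbols were left out, among them 1 that pairs Psme2 with a second symbol. Where a gene had several rows (999 genes), the brightest on average stood for it. IDs of 21698 rows matched the GRCm38.p6 gene table. A limma 3.58.1 model (R 4.3.3) of all 23 arrays gave each group its own mean and had 15 residual and 5.61 prior degrees of freedom. There were 14 two-sided comparisons, each adjusted over 19938 genes at a threshold of 0.05. The code was checked on simulated data. The authors' R/maanova test was not run. The number of arrays limits the precision.

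Psmb5 to Psmb10, Psme1 and Psme2 were named whatever their values, as were the 4 other members with the largest called difference in each direction of a comparison. From each gene list up to 3 members with the largest called differences were named. Psma6, Psmb1, Psmc1, Psmc4, Psmc5 at 24 h, Psmd4, Psmd5, Psmd9, Psmd10 and Psmd14 at 24 h, Psme4, Psma2, and Pomp, Nfe2l1, Zfand2a, Zfand5, Ecpas and Psmg2 at 2 h were named after their values were seen. The members, their classes and the lists were chosen with earlier results of these data known, and all lists were written from general knowledge. No comparison of protein sequences was run. Alternatives were median-centred arrays, quantile normalization over the genes tested, a filter on a highest group mean of 6, the mean of all rows of a gene, the replicate number as a block, trend and robust moderation, a fit of only the groups compared, and each array left out in turn.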

Additional observations from a re-analysis of the deposited data

Results flagged for a closer look

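The change of Psmb8 from 0 h to 24 h differed between the genotypes, by -0.93 ± 0.19 on the log2 scale (cub minus wild type, limma adjusted p = 0.0218, 3 arrays in each of the 4 groups). It rose in wild type and was at 0.02 from its start in cub, where it began higher. The change of Tap1, its neighbour among antigen processing genes, differed in the same direction, by -0.77 ± 0.18 (0.0377), and that call held in 20 of 30 alternatives, with a highest p of 0.101. Both differences rest partly on the 0 h arrays in which both genes were higher in cub.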

How the results depend on the processing

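No value of the 136 named gene results changed its sign once called, and 26 of the 46 that were called were called under every alternative. At 0 h the count of 3 members called became 7 with median-centred arrays, 11 with quantile normalization, 6 with the filter, 5 with the mean of all rows and 8 with trend and robust moderation. With median-centred arrays and quantile normalization the number of all genes called lower at 0 h rose too, from 384 to 454 and 682. At 15 min the count of 4 became 7 with trend and robust moderation and 2 in a fit of only the groups compared. That fit, which has fewer arrays, also gave 0 for 1 at 24 h, 6 for 10 in wild type at 2 h and 4 for 7 in cub at 2 h. With each array left out in turn the counts of cub against wild type ran from 2 to 6 at 0 h, 0 to 7 at 15 min, 0 to 1 at 2 h, 0 to 2 at 24 h and 6 to 12 for the average. They ran from 3 to 11 for wild type and 3 to 8 for cub at 2 h, 30 to 33 and 30 to 35 at 24 h, and 0 to 2 for the genotype difference of the 24 h change. The 0 h count was 6 without wild-type 24 h replicate 1. Whether the replicate numbers pair the samples is not settled. Over 11 pairs of same-numbered arrays of a time, the correlation of their deviations ran from -0.296 to 0.258, and 5 were over 0.1. Arrays with different numbers were not set beside them, so this check cannot decide it. With the replicate number as a block the count at 15 min was 2, with Psmb8 (0.0515) and Psmd5 (0.0555) no longer called. The cause of these changes was not tested.

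Differences of about 0.1 on the log2 scale, the size seen for most constitutive genes between the genotypes, are 1 to 3 standard errors of this fit, so a gene that was not called is not shown to be equal. The spread is between arrays of separate biological replicates, per the labels.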
